A study of Homo sapiens with 9 samples.

Results

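The genes described here are the subunits of sodium, calcium and potassium channels in SH-Sy5y cells, a human neuroblastoma cell line, after transfection with a mimic of miR-1229-3p. Members were all gene symbols in the count table that begin with SCN and a digit, with CACNA, CACNB or CACNG, or with KCN, which gave 87 of 14943 genes. Of these, 11 belonged to sodium, 18 to calcium and 58 to potassium channels. The names and not the measurements chose them. CACNA1H was not analysed here.

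Cells received 40 pmol of a negative control oligonucleotide with 0 pmol of mimic (Ctrl), 20 pmol of mimic with 20 pmol of the control oligonucleotide (10 nM), or 40 pmol of mimic with 0 pmol of the control oligonucleotide (20 nM). All 9 libraries, 3 per group, held polyadenylated RNA taken 48 h after transfection. The total amount of transfected RNA was the same in every group, so the mimic at 20 nM and the lack of the control oligonucleotide cannot be told apart. RNA of a pair of wells was pooled for a sample where possible, and nothing says that replicates came from separate cultures, so the p-values measure the spread between these libraries, which may be technical.

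Library totals were 17.4 to 28.2 M estimated counts. The 20 nM replicate 3 library stood apart from the rest. Along principal component 1, with 30.4% of the variance, it lay at 47.4 and the others between -17.1 and 7.72. Surrogate variables, which stand for unexplained differences between libraries, were part of each fit, and the one in the fit by group loaded 0.907 on that library. Calls are therefore also given without it. All 10 noradrenergic neuroblastoma markers were measured, with a summed level of 6018 to 6145 CPM in Ctrl, 6416 to 6947 CPM at 10 nM and 6179 to 7550 CPM at 20 nM, although TH, the enzyme that starts catecholamine synthesis, was near 0 (0.565 to 0.633 CPM in Ctrl). Of the marker lists for other cells, 7 of 8 mesenchymal, 2 of 6 glial, 1 of 4 muscle and 0 of 3 blood genes were measured. At 20 nM, 1 noradrenergic marker rose and 3 fell, beside 13.9% of all genes called in either direction. Of the 7 mesenchymal markers measured, CD44 alone passed. It rose from 1.34 to 1.38 CPM in Ctrl to between 2.92 and 3.4 CPM. FN1, the most abundant of them, did not change (0.04 on the log2 scale, adjusted p = 0.823). The part of these changes in the results was not tested.

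Voltage-gated channels open in response to a change in membrane potential. Sodium channels drive the upstroke of the action potential, calcium channels couple it to secretion and gene expression, and potassium channels repolarise the membrane and hold it at rest. Each channel is built around pore-forming subunits, and accessory subunits (beta, alpha2delta, KChIP and others) set its traffic and gating. Neuroblastoma cells of sympathetic origin are excitable and carry many of these channels.

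A microRNA represses messenger RNAs that pair with its seed, which comprises bases 2 to 8 from the 5′ end. The mature miR-1229-3p (RefSeq, chr5:179798278-179798300, minus strand, GRCh38.p14) is shown with its seed in capitals. Below it are matches in the 3′ UTR of CACNG2, KCNMB4, KCNH6 and KCNMA1, which passed the threshold in at least 1 comparison. The 8-mer matches of CACNA1C and CACNG8 follow for comparison. KCNK9, which was called higher at 20 nM, also holds an 8-mer in the 3′ UTR of its canonical transcript, which is not printed. In the matches, capitals mark the 7-mer or 8-mer. The last capital A of KCNMA1, CACNA1C and CACNG8 lies opposite the first base of the microRNA and does not pair with it.
miR-1229-3p: cUCUCACCacugcccucccacag
CACNG2: ttgtgagaGGTGAGAgctgggct
KCNMB4: tttgtttaGGTGAGAtgtacatc
KCNH6: gtgggcaaGGTGAGAgttaagga
KCNMA1: caggcattGTGAGAAgagatgtt
CACNA1C: tttgggaaGGTGAGAAgagtactc
CACNG8: gaaagagaGGTGAGAAagtctggg

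These matches lay in annotated 3′ UTR exons of GENCODE 44 (GRCh38.p14), at chr22:36562881-36562903 on the minus strand for CACNG2, chr12:70431813-70431835 on the plus strand for KCNMB4 and chr17:63545937-63545959 on the plus strand for KCNH6. The KCNMA1 match, at chr10:76870523-76870545 on the minus strand, was in the longest annotated 3′ UTR but not in that of the canonical transcript. Those of CACNA1C and CACNG8 were at chr12:2695309-2695332 and chr19:53986818-53986841, both on the plus strand. All are descriptions of letters and not measured binding sites.

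In control cells the channel subunits spanned a wide range of levels. Levels are CPM, TMM-scaled counts per M estimated counts, and levels of different genes are compared as CPM per kb of merged exon. Merged exons cover all annotated transcripts of a gene and can be longer than the transcript expressed, so such orders are approximate. In Ctrl, 5 members were at 100 CPM or more, 29 from 10 to under 100 CPM, 38 from 1 to under 10 CPM and 15 under 1 CPM. The median was 4.26 CPM, against 28 CPM over all genes tested. The summed level was 3276 CPM, and the 4 highest members held 67.1% of it.

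Per kb, CACNG4 was highest at 206 ± 2.31 CPM per kb (SD, n = 3). It encodes a gamma subunit of the group that also serves AMPA receptors as auxiliary proteins. KCNH2, the pore subunit of the ERG current that repolarises the heart and excitable tumour cells, followed at 97.4 ± 2.63 CPM per kb. CACNA2D2, an alpha2delta subunit that carries calcium channels to the membrane and binds gabapentin, came next at 79.8 ± 7.01 CPM per kb. The order continued with the gamma subunit CACNG7 at 25.5, KCNJ8 (the Kir pore of ATP-sensitive potassium channels) at 14.2 and CACNA2D1 at 12.1 CPM per kb. The control libraries of each of these did not overlap those of the next in the order. The tandem-pore (K2P) subunit KCNK1 at 9.74 and the beta subunit CACNB3 at 9.02 CPM per kb overlapped, so their order is not resolved. KCNK3 stood at 5.11 CPM per kb, and from KCNN1 at 4.29 through SCN3A at 4.16, KCNH1 at 3.9 and KCNAB3 at 3.88 to CACNG8 at 3.7 CPM per kb each neighbour overlapped the next.

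**Figure D1:**
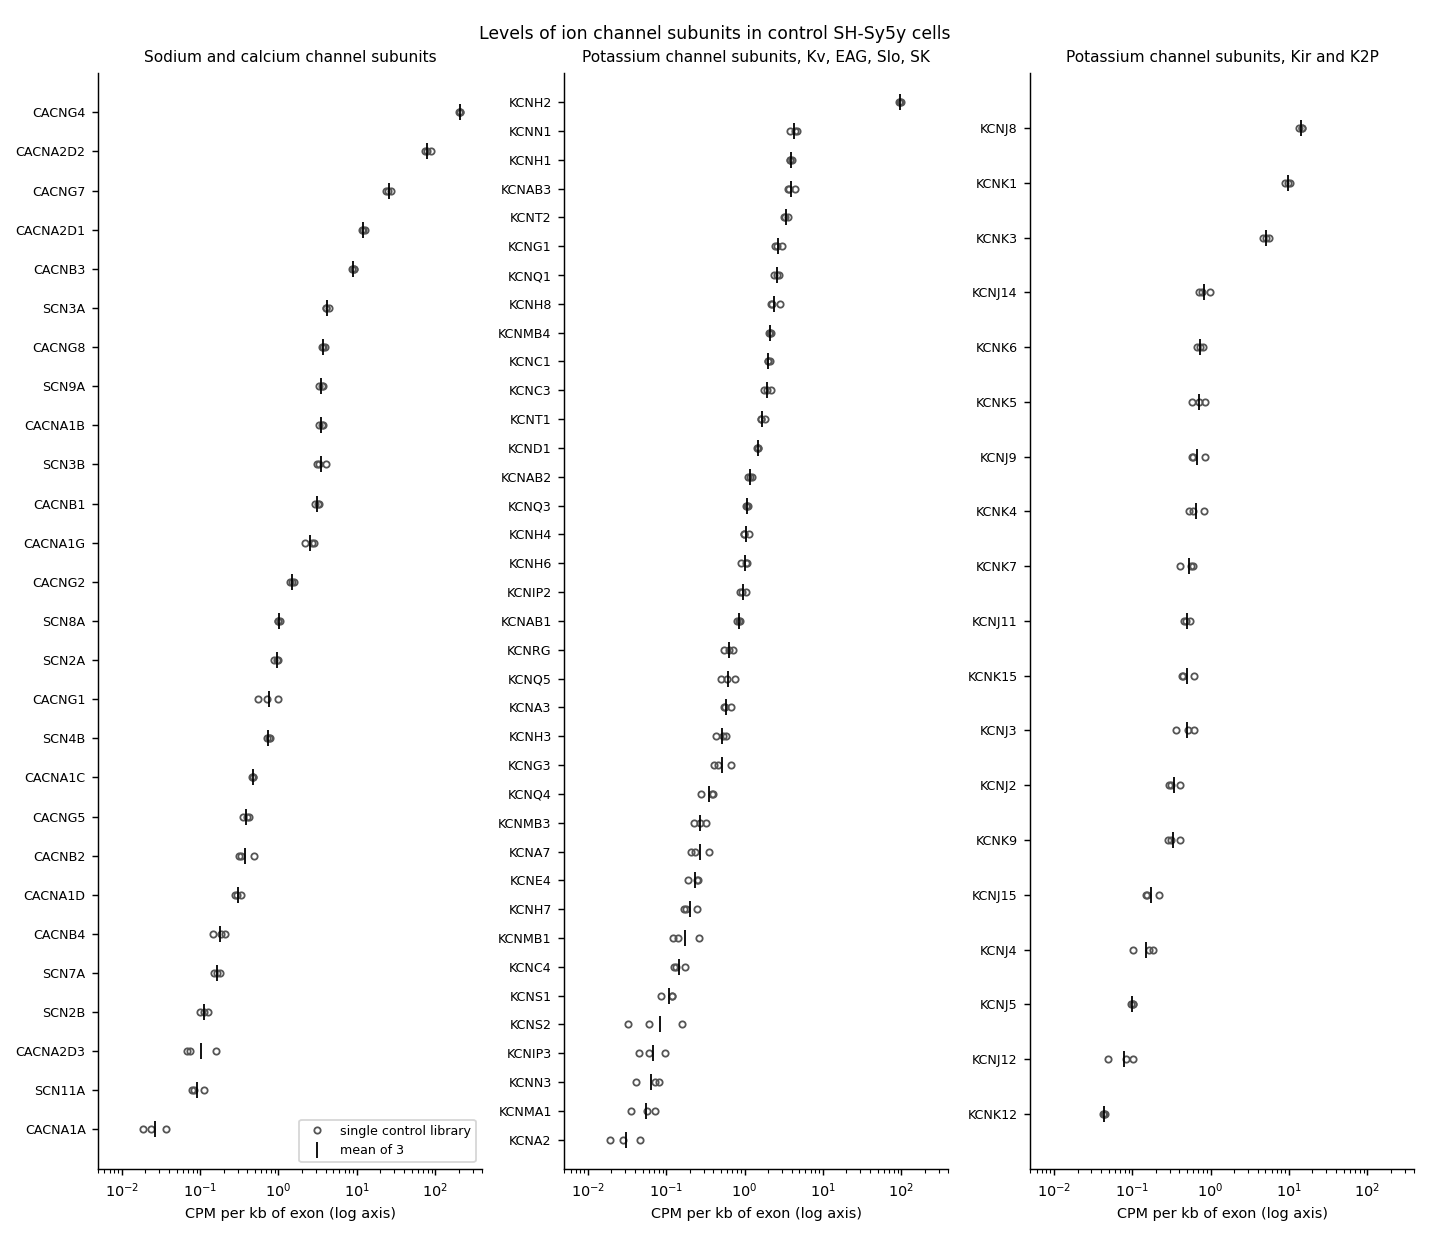
Level of 83 channel subunits in the 3 control libraries, as CPM per kb of exon on a log axis (circles, single libraries; ticks, means), with sodium and calcium channels on the left and potassium channels in the middle and on the right. CACNG4, KCNH2 and CACNA2D2 stand above all other members, at 206, 97.4 and 79.8 CPM per kb.

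A few genes carried most of each class. KCNH2 held 53.5% of the summed CPM per kb of the 44 potassium channel pore subunits, and CACNG4 held 60.1% of that of the 13 accessory calcium channel subunits. The 6 sodium channel pore subunits summed to 11.6 ± 0.255 CPM per kb (SD, n = 3), spread over several genes, with SCN3A the highest at 35.7%. In CPM without length the control means were 48.9 for SCN9A and 48.1 for SCN3A. The 5 calcium channel pore subunits summed to 6.87 ± 0.307 CPM per kb, of which CACNA1B held 51.2%. Accessory calcium channel subunits summed to 342 ± 6.25 CPM per kb, far above the pore subunits measured.

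At 10 nM, 0 of 87 members passed the threshold (adjusted p under 0.05, edgeR quasi-likelihood test, Benjamini-Hochberg over 14943 genes). Over all genes 0.649% passed. At an unadjusted p under 0.05 there were 14 members, 16.1%, against 13.9% of all genes. With the DESeq2 Wald test 1 member passed, KCNH2, which was also the only member to pass (adjusted p = 0.0321, fold change 0.19 on the log2 scale) without the 20 nM replicate 3 library. The median log2 fold change of the members was 0.00, as it was over all genes. In 9 members, 10.3%, all 10 nM libraries lay above all Ctrl libraries, against 10.1% of all genes, and in 3 members, 3.45%, all lay below, against 9.9%.

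At 20 nM, 11 of 87 members passed the threshold, 9 higher and 2 lower than in Ctrl. This was 12.6% of the members, beside 13.9% of all genes. Split by direction, 10.3% of the members were called higher against 7.8% of all genes, and 2.3% lower against 6.08%. The higher ones included the sodium channel pore SCN9A, the calcium channel pore CACNA1B, and the potassium channel genes KCNG1, KCNH1, KCNJ2, KCNK1, KCNK9 and KCNMA1. The lower ones were CACNG2 and KCNMB4, both accessory subunits. The median log2 fold change of the members was -0.01 against 0.00 over all genes, while the median size of the fold change was 0.22 on the log2 scale against 0.13. The median standard error was also larger, 0.186 against 0.0851 on the log2 scale.

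Without the 20 nM replicate 3 library all 11 members remained past the threshold at 20 nM, together with CACNG8, which made 12. The surrogate variable of the fit by group already loaded 0.907 on that library, so the fit without it is no independent check. Over all genes 2656 passed at 20 nM without that library, against 2074 in the main fit. With no surrogate variable 6 of the 11 passed, and CACNA1B, CACNG2, KCNJ2, KCNMA1 and SCN9A did not. With replicate numbers as a block in place of surrogate variables 7 of the 11 passed, and CACNG2, KCNJ2, KCNMA1 and SCN9A did not. In that fit KCNH2, KCNH6, KCNK15 and KCNMB3 passed as well. Without Ctrl replicate 1 the count was 6, and without 20 nM replicate 2 it was 7. Calls over all genes also fell, from 2074 in the main fit to 954 with no surrogate variable. They were 2039 with the block, 1508 without Ctrl replicate 1 and 1074 without 20 nM replicate 2. In 22 members, 25.3%, all 20 nM libraries lay above all Ctrl libraries, beside 15.2% of all genes, and in 11 members, 12.6%, all lay below, beside 13.7%. The 20 nM replicate 3 library was the highest of the 9 in 32 members, 36.8%, beside 30.8% of all genes. Among the 33 members with a mean of at least 10 CPM, 6 passed at 20 nM (18.2%, beside 17.9% of all genes at that level), and among the 54 members below it 5 passed (9.26%, beside 4.44%). In bulk RNA, fewer cells of a type and less RNA per cell cannot be told apart in any of these values.

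With the concentration as a number (dose trend, fold change per 20 nM), 12 of 87 members passed, 13.8% beside 17.5% of all genes. Of these 10 were higher (11.5%, beside 9.84%) and 2 lower (2.3%, beside 7.69%). They were the 11 members called at 20 nM and KCNH6. The 4 comparisons share libraries, so their calls are not independent of each other. Without 20 nM replicate 1 the dose trend called 3970 of 14943 genes, against 2620 in the main fit. Among them were 21 members, 14 higher and 7 lower, of which 9 were among the 12. SCN2A (-0.32 on the log2 scale, adjusted p = 0.02) and SCN3A (-0.21, adjusted p = 0.0421) were among those that passed only then. Between 20 nM and 10 nM 1 member passed, 1.15% of the members beside 2.79% of all genes.

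**Figure D2:**
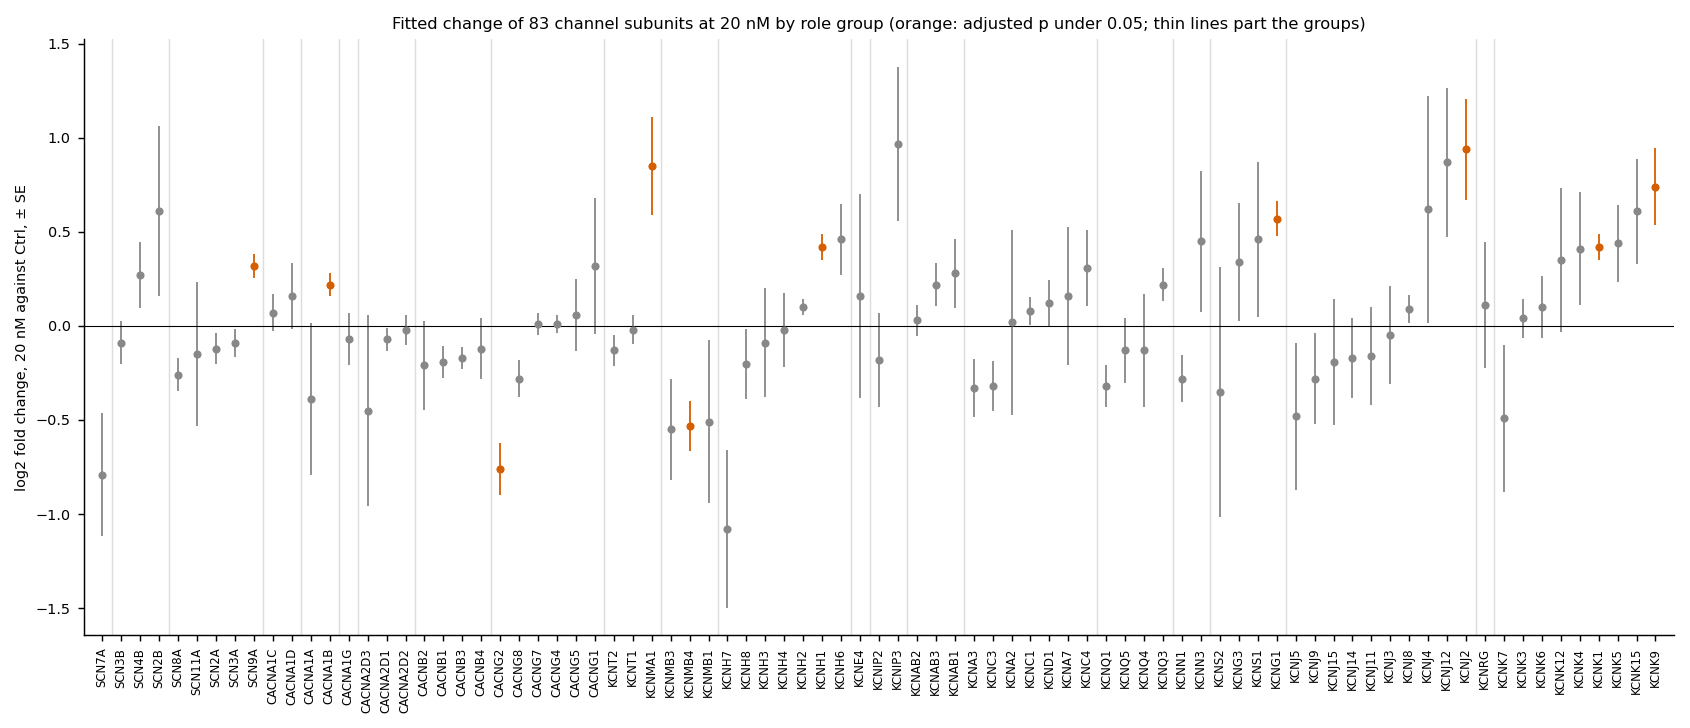
Fitted log2 fold change at 20 nM against Ctrl for 83 channel subunits (points) with its standard error (bars), grouped by role, with members past an adjusted p of 0.05 in orange. The 10 members in orange comprise 8 above and 2 below 0, and many of the largest changes in grey have wide bars.

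Among the sodium channel pores, SCN9A, a channel of sensory and sympathetic neurons, was at 51.3, 46.1 and 49.4 CPM in Ctrl, at 57.0, 49.8 and 49.1 CPM at 10 nM and at 63.4, 54.6 and 40.2 CPM at 20 nM. The groups overlapped, since 20 nM replicate 3 was the lowest and 20 nM replicate 1 the highest of all libraries. The fitted fold change at 20 nM was 0.32 ± 0.0634 on the log2 scale (SE, adjusted p = 0.00581). When replicate numbers entered as a block instead of surrogate variables (replicate block), it was 0.09 (adjusted p = 0.606), and in the dose trend it was then 0.09 (adjusted p = 0.577). With no surrogate variable it was 0.11 in both (adjusted p = 0.663 and 0.638). Without 20 nM replicate 1 it was 0.15 (adjusted p = 0.272) at 20 nM and 0.00 (adjusted p = 0.985) in the dose trend. The antisense gene SCN1A-AS1 shares 11.4% of the exon bases of SCN9A, and whether counting used strand is not stated.

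SCN3A and SCN2A, sodium channel pores of central neurons, did not pass the test. SCN3A was between 46.3 and 51.6 CPM in Ctrl and between 38.3 and 45.9 CPM at 20 nM, with a fitted fold change of -0.09 on the log2 scale (adjusted p = 0.482). SCN2A was between 21.2 and 24.1 CPM in Ctrl and between 14.3 and 21.0 CPM at 20 nM, with -0.12 on the log2 scale (adjusted p = 0.399). For both, all 20 nM libraries lay below all Ctrl libraries. Of the 4 sodium channel beta subunits 0 passed, and the highest of them, SCN3B, was between 31.4 and 40.9 CPM in Ctrl and between 29.5 and 34.6 CPM at 20 nM. SCN7A, a sodium sensor of the same family, was at 1.45, 1.73 and 1.60 CPM in Ctrl and at 0.67, 1.20 and 0.932 CPM at 20 nM (fold change -0.79 on the log2 scale, adjusted p = 0.131).

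Among the 5 calcium channel pore subunits, CACNA1B rose. It forms the N-type channel, which triggers transmitter release at nerve terminals. Its level was 32.4, 35.4 and 36.6 CPM in Ctrl, 36.4, 37.6 and 41.5 CPM at 10 nM and 40.0, 43.4 and 57.5 CPM at 20 nM. All 20 nM libraries lay above all Ctrl libraries, with replicate 3 the highest. The fold change at 20 nM was 0.22 ± 0.0623 on the log2 scale (SE, adjusted p = 0.0364) and that of the dose trend was 0.29 (adjusted p = 0.00393). The call at 20 nM was lost without Ctrl replicate 1 (adjusted p = 0.15), 20 nM replicate 2 (0.163) or Ctrl replicate 3 (0.0596), and also with no surrogate variable (0.43 on the log2 scale, adjusted p = 0.0596), with library-total scaling (0.0513) and with DESeq2 (0.0836). With the replicate block the fold change at 20 nM was 0.42 (adjusted p = 0.0139). The call of the dose trend held in all 16 alternatives.

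The L-type pore CACNA1C, which carries an 8-mer match in its 3′ UTR, was at 12, 12.2 and 11.6 CPM in Ctrl and at 11.7, 14.1 and 18.3 CPM at 20 nM. The fitted fold change was 0.07 on the log2 scale (adjusted p = 0.68). The T-type pore CACNA1G was between 21.7 and 28.8 CPM in Ctrl and between 21.3 and 27.7 CPM at 20 nM (-0.07 on the log2 scale, adjusted p = 0.79). Neither passed in any of the comparisons, although CACNA1C passed as higher in the dose trend without 20 nM replicate 1 (0.36 on the log2 scale, adjusted p = 0.0167).

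Of the 13 accessory calcium channel subunits 1 passed, CACNG2, known as stargazin, which carries AMPA receptors to the synapse. It was at 9.19, 10.1 and 9.5 CPM in Ctrl, at 6.74, 7.99 and 10.1 CPM at 10 nM and at 5.73, 6.19 and 9.44 CPM at 20 nM. Replicates 1 and 2 at 20 nM lay below all Ctrl libraries and replicate 3 lay within them. The fitted fold change at 20 nM was -0.76 ± 0.138 on the log2 scale (SE, adjusted p = 0.00323), and without 20 nM replicate 3 it was -0.68 (adjusted p = 0.00471). With the replicate block it was -0.45 at 20 nM (adjusted p = 0.0704) and -0.45 in the dose trend (adjusted p = 0.0483). With no surrogate variable it was -0.42 in both (adjusted p = 0.205 and 0.166), so that both calls were lost. A lncRNA on the same strand shares 31.6% of the exon bases of CACNG2, which lies at chr22:36560857-36703752.

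The most abundant accessory subunits, CACNG4 and CACNA2D2, did not pass in any of the comparisons. CACNG4 was at 744, 728 and 741 CPM in Ctrl and at 756, 750 and 854 CPM at 20 nM, with a fitted fold change of 0.01 ± 0.0458 on the log2 scale (SE, adjusted p = 0.89), although its 20 nM libraries all lay above those of Ctrl. CACNA2D2 was at 512, 568 and 478 CPM in Ctrl and at 489, 548 and 580.3 CPM at 20 nM, with -0.02 ± 0.0795 on the log2 scale (adjusted p = 0.93). CACNA2D1, a further alpha2delta subunit, was at 117, 106 and 110 CPM in Ctrl and at 112, 93.9 and 79.5 CPM at 20 nM (-0.07 on the log2 scale, adjusted p = 0.488). Without 20 nM replicate 1 it passed as lower at 20 nM (-0.25, adjusted p = 0.0437) and in the dose trend (-0.30, adjusted p = 0.00953), and CACNG7 passed as higher in that dose trend (0.25, adjusted p = 0.0277). Of the 4 beta subunits, which chaperone the pore, 0 were called, although all had a fitted fold change below 0 at 20 nM, from -0.21 to -0.12 on the log2 scale. The highest of them, CACNB3, was at 65.4, 66.2 and 61.9 CPM in Ctrl and at 55.6, 60.9 and 66.3 CPM at 20 nM (-0.17 on the log2 scale, adjusted p = 0.0731). It passed without Ctrl replicate 3 (adjusted p = 0.0439). CACNG8 had a fitted fold change of -0.28 on the log2 scale (adjusted p = 0.0816) and passed without 20 nM replicate 3 (adjusted p = 0.0318) or 10 nM replicate 1 (0.0405).

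Potassium channels made up 58 of the 87 members and gave 7 of the 11 calls at 20 nM, 6 higher and 1 lower. Over all genes 13.9% were called. KCNH1, the EAG pore subunit, which is also studied in tumour growth, was at 49.2, 49.6 and 51.8 CPM in Ctrl, at 61.0, 55 and 56.2 CPM at 10 nM and at 71.0, 63.0 and 73.7 CPM at 20 nM. The 3 groups did not overlap. The fold change at 20 nM was 0.42 ± 0.0696 on the log2 scale (SE, adjusted p = 0.00167), and that of the dose trend was 0.46 (adjusted p = 0.000169). Exons of a pseudogene, IPO8P1, share 15.7% of the exon bases of KCNH1 on the same strand, and an unclassified locus on the opposite strand shares 28.1%. KCNH1 lies at chr1:210676823-211134165 on the minus strand.

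KCNH2 was higher in both mimic groups in CPM, but the fitted change did not pass. It was at 683, 702 and 720.3 CPM in Ctrl, at 793, 788 and 837 CPM at 10 nM and at 746, 785 and 1017 CPM at 20 nM. Both mimic groups lay above all Ctrl libraries. The fitted fold change was 0.16 ± 0.0378 on the log2 scale at 10 nM (SE, adjusted p = 0.0908) and 0.10 ± 0.0432 at 20 nM (adjusted p = 0.166). With the replicate block, that at 20 nM was 0.27 (adjusted p = 0.0499). In the dose trend it was 0.15 (adjusted p = 0.0599), and 0.27 with the block (adjusted p = 0.0402). The dose trend passed without 10 nM replicate 2 (adjusted p = 0.0279), 10 nM replicate 3 (0.0454) or 20 nM replicate 1 (0.00399).

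KCNH6, a further ERG pore subunit, was at 4.56, 3.78 and 4.43 CPM in Ctrl, at 5.72, 5.07 and 4.80 CPM at 10 nM and at 6.74, 4.86 and 8.23 CPM at 20 nM. Both mimic groups lay above all Ctrl libraries and overlapped each other. It passed in the dose trend (0.55 ± 0.171 on the log2 scale, SE, adjusted p = 0.0399) and not at 20 nM (0.46, adjusted p = 0.137), where it passed with the replicate block (0.62, adjusted p = 0.036) and without 20 nM replicate 2 (0.69, adjusted p = 0.0473). The dose trend call was lost without any one of the 3 Ctrl libraries (adjusted p = 0.066, 0.0849 and 0.0873), without 10 nM replicate 1 (0.0597) or 3 (0.0509) and without 20 nM replicate 3 (0.0698). It was also lost with the other number of surrogate variables (0.0518), a mean of at least 1 CPM (0.0646) and DESeq2 (0.0563), and held in 7 of the 16 alternatives.

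KCNG1 encodes an electrically silent subunit, which forms no channel alone and alters the currents of other Kv channels. It was at 14.2, 16.2 and 13.3 CPM in Ctrl, at 16.3, 17.6 and 18.6 CPM at 10 nM and at 21.7, 22.4 and 29.8 CPM at 20 nM. The 3 groups did not overlap. The fold change at 20 nM was 0.57 ± 0.0932 on the log2 scale (SE, adjusted p = 0.00155) and that of the dose trend was 0.64 (adjusted p = 0.000333). Summed over the 4 silent subunits, Ctrl held 3.4 ± 0.231 CPM per kb, 10 nM 4.04 ± 0.0372 and 20 nM 5.42 ± 0.881 CPM per kb (SD, n = 3), and KCNG1 held 79.3% of the control sum. KCNG1 lies at chr20:51003656-51023107 on the minus strand.

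Among the K2P subunits, which carry the background potassium current that sets the resting potential, 2 of 9 passed at 20 nM, beside 13.9% of all genes. A fitted fold change above 0 was found in 8 of 9, beside 50% of all genes. The median was 0.41 on the log2 scale, beside 0.00 over all genes. Only KCNK1 and KCNK3 were above 10 CPM in Ctrl, and KCNK3 had a fold change of 0.04 on the log2 scale (adjusted p = 0.867). KCNK1 was at 31.9, 34.8 and 36.3 CPM in Ctrl, at 35.6, 39.8 and 41.9 CPM at 10 nM and at 47.4, 46.3 and 57.1 CPM at 20 nM. All 20 nM libraries lay above all libraries of the other groups. Its fold change at 20 nM was 0.42 ± 0.069 on the log2 scale (SE, adjusted p = 0.00183) and that of the dose trend was 0.46 (adjusted p = 0.000425). KCNK1 lies at chr1:233614106-233672514 on the plus strand.

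KCNK9, an acid-sensitive K2P channel, was at 1.91, 2.11 and 2.72 CPM in Ctrl, at 2.71, 2.87 and 3.49 CPM at 10 nM and at 3.89, 3.91 and 5.19 CPM at 20 nM. All 20 nM libraries lay above the others, at a low level. The fold change at 20 nM was 0.74 ± 0.205 on the log2 scale (SE, adjusted p = 0.0311), a call lost without Ctrl replicate 1 (adjusted p = 0.101), Ctrl replicate 2 (0.065), 20 nM replicate 1 (0.0838) or 20 nM replicate 2 (0.103) and with DESeq2 (0.059). In the dose trend it was 0.80 (adjusted p = 0.0106), which held in all 16 alternatives. KCNK15, at 1.13, 1.08 and 1.53 CPM in Ctrl and 1.80, 2.15 and 2.84 CPM at 20 nM, had 0.61 on the log2 scale (adjusted p = 0.174) and passed with the replicate block (0.86, adjusted p = 0.0393, and 0.0425 in the dose trend). In the same block fit KCNK5 passed in the dose trend (adjusted p = 0.0454).

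The large-conductance (BK) potassium channel is opened by calcium and voltage together. In the main fit at 20 nM its pore gene KCNMA1 was called higher and its beta subunit gene KCNMB4 lower. The KCNMA1 call held in 6 of the 16 alternatives and the KCNMB4 call in 12. KCNMA1 was at 2.23, 1.41 and 2.83 CPM in Ctrl, at 2.66, 2.87 and 2.51 CPM at 10 nM and at 4.31, 3.48 and 3.00 CPM at 20 nM. All 20 nM libraries lay above all Ctrl libraries, with replicate 3 close to the highest of them. The fold change at 20 nM was 0.85 ± 0.259 on the log2 scale (SE, adjusted p = 0.0462), and with the replicate block it was 0.72 (adjusted p = 0.0823, and 0.0564 in the dose trend). With no surrogate variable it was 0.72 in both (adjusted p = 0.104 and 0.076). The call at 20 nM was lost without any single library other than Ctrl replicate 3 and 20 nM replicate 3, with adjusted p from 0.0556 to 0.252. That of the dose trend was lost without Ctrl replicate 1 (adjusted p = 0.0703), Ctrl replicate 2 (0.0768), 20 nM replicate 1 (0.145) or 20 nM replicate 2 (0.0716).

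KCNMB4, the beta subunit of neuronal BK channels, was at 10.7, 9.89 and 10.4 CPM in Ctrl, at 10.0, 8.78 and 7.37 CPM at 10 nM and at 6.74, 7.23 and 6.12 CPM at 20 nM. All 20 nM libraries lay below all others. The fold change at 20 nM was -0.53 ± 0.133 on the log2 scale (SE, adjusted p = 0.0198) and that of the dose trend was -0.55 (adjusted p = 0.00765). The call at 20 nM was lost without Ctrl replicate 1 (adjusted p = 0.0557), 20 nM replicate 1 (0.087), 20 nM replicate 2 (0.057) or Ctrl replicate 3 (0.0587), and that of the dose trend held in all 16 alternatives. The 3 BK beta subunits had fitted fold changes from -0.55 to -0.51 on the log2 scale at 20 nM, and KCNMB4 alone passed. KCNMB3 was at 2.40, 2.87 and 2.05 CPM in Ctrl and 1.63, 1.59 and 1.22 CPM at 20 nM, and passed with the replicate block (-0.71 on the log2 scale, adjusted p = 0.0427, and 0.0300 in the dose trend). PIK3CA on the opposite strand shares 38.0% of its exon bases.

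KCNJ2, an inward rectifier that stabilises the resting potential, was at 1.73, 1.62 and 2.27 CPM in Ctrl, at 2.08, 2.03 and 1.83 CPM at 10 nM and at 2.85, 4.34 and 2.15 CPM at 20 nM. Replicate 2 at 20 nM was far above the rest, and replicate 3 lay within the Ctrl libraries. The fitted fold change at 20 nM was 0.94 ± 0.269 on the log2 scale (SE, adjusted p = 0.0367). It was 0.68 with the replicate block (adjusted p = 0.125, and 0.103 in the dose trend) and 0.56 without 20 nM replicate 2 (adjusted p = 0.302). With no surrogate variable it was 0.72 at 20 nM (adjusted p = 0.127) and 0.73 in the dose trend (adjusted p = 0.105). The call at 20 nM was also lost with the other number of surrogate variables (0.0528) and without Ctrl replicate 1 (0.0946) or 2 (0.0857), and that of the dose trend once genes averaging under 1 CPM were dropped (0.0791), and without Ctrl replicate 1 (0.0929) or 2 (0.0823) or 20 nM replicate 1 (0.0605) or 2 (0.277). The most abundant inward rectifier, KCNJ8, was between 33.3 and 37.0 CPM in Ctrl and between 34.9 and 37.8 CPM at 20 nM (0.09 on the log2 scale, adjusted p = 0.468).

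**Figure D3:**
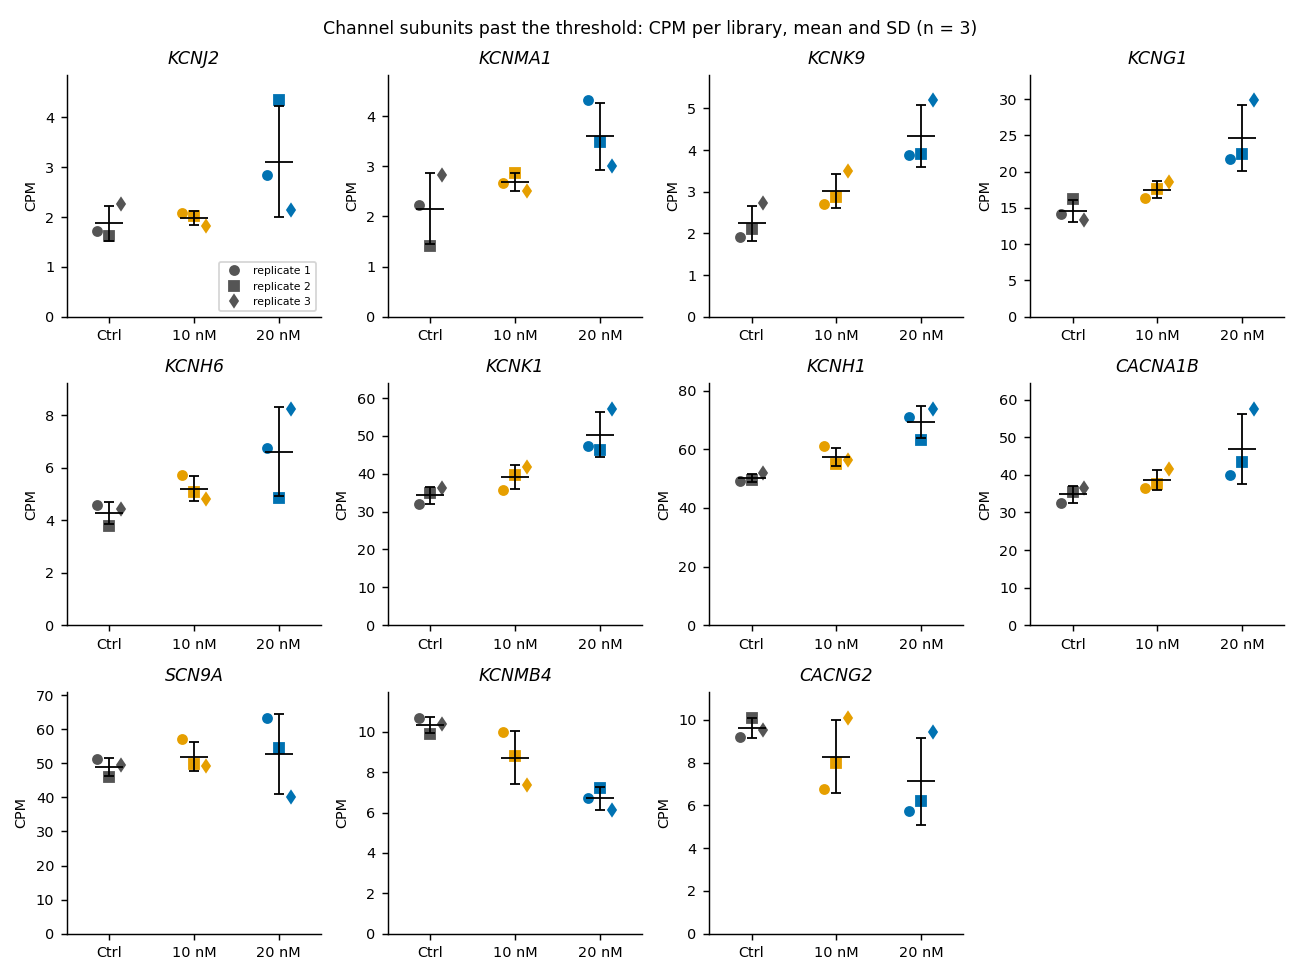
CPM of 11 members past the threshold in at least 1 comparison, per library (symbols, by replicate number) with the mean and SD of the 3 libraries of each group (bars), on axes that start at 0. KCNG1 and KCNH1 do not overlap between groups, whereas SCN9A, CACNG2 and KCNJ2 have a 20 nM library within or beyond the Ctrl range.

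The remaining potassium channel genes did not pass. KCNQ3, a subunit of the M current, which damps repeated firing, was at 13.7, 13.4 and 14.1 CPM in Ctrl and at 16.2, 15.5 and 14.1 CPM at 20 nM (0.22 on the log2 scale, adjusted p = 0.119). The most abundant members of further groups at 20 nM were the delayed rectifier KCNC1 (0.08 on the log2 scale, adjusted p = 0.521), the sodium-activated KCNT2 (-0.13, adjusted p = 0.351) and the small-conductance KCNN1 (-0.28, adjusted p = 0.157, and 0.0233 in the dose trend without Ctrl replicate 3). The accessory KCNAB3 had 0.22 (adjusted p = 0.228, and 0.0389 in the dose trend without Ctrl replicate 1), KCNIP2 -0.18 (adjusted p = 0.697) and KCNE4 0.16 (adjusted p = 0.891) on that scale. KCNRG, which encodes a cytosolic regulator and shares 66.8% of its exon bases with TRIM13, had 0.11 (adjusted p = 0.88).

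Summed levels are given with no test. The 44 potassium channel pore subunits summed to 182 ± 3.13 CPM per kb in Ctrl, 202 ± 7.09 at 10 nM and 214 ± 29.4 at 20 nM (SD, n = 3). The sums of single libraries were 179, 182 and 185 in Ctrl, 197, 198 and 209.9 at 10 nM and 193, 200.1 and 247 CPM per kb at 20 nM, so both mimic groups lay above Ctrl and overlapped each other. The sodium channel pore subunits were at 11.6, 11.7 and 12.1 CPM per kb in Ctrl, 10 nM and 20 nM, and the calcium channel pore subunits at 6.87, 7.15 and 8.20 CPM per kb. Accessory calcium channel subunits were at 342, 348 and 360.3 CPM per kb. Their single libraries were at 342, 349 and 336 in Ctrl and at 340, 348 and 393 CPM per kb at 20 nM, so that replicates 1 and 2 lay within the Ctrl range and replicate 3 above it. Sums are not corrected for surrogate variables, and 20 nM replicate 3 was the highest library in the potassium pore, calcium pore and accessory calcium sums.

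Of the 87 members, 26 (29.9%) held a 7-mer (GGTGAGA or GTGAGAA) or 8-mer (GGTGAGAA) seed match on the transcript strand of their longest 3′ UTR, beside 22.6% of 13777 genes with such a UTR. The 8-mer contains both 7-mers, and each gene was counted once by its strongest match. An 8-mer was found in 8 members (9.2%, beside 4.61% of all genes), among them CACNA1C, CACNG5, CACNG8, KCNC4, KCNJ14, KCNK9 and KCNK12. In 23 of the 26 a match also lay in the UTR of the canonical transcript, and 16 had 1 match.

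Both members that fell at 20 nM, CACNG2 and KCNMB4, carry a 7-mer. They were 7.69% of the 26 members with a 7-mer or 8-mer, beside 10.5% of all genes with one. Of the 42 members without any match, the 6-mer GTGAGA included, 0 fell, beside 4.58% of all genes without one. Matches were also found in members that were higher. KCNMA1, with a 7-mer, and KCNK9, with an 8-mer, rose at 20 nM, and KCNH6, with a 7-mer, rose in the dose trend. Of the members without a match, 6 rose at 20 nM and in the dose trend, among them SCN9A, CACNA1B, KCNG1, KCNH1 and KCNK1. These were 14.3% of the 42, beside 8.13% of all genes without a match at 20 nM and 11% in the dose trend. With a 7-mer or 8-mer, 7.69% of the members rose at 20 nM, beside 8.06% of all genes with one, and 11.5% in the dose trend, beside 9.22%. The median dose trend was -0.01 on the log2 scale with a 7-mer or 8-mer and 0.03 without a match. Of the 8 members with an 8-mer, KCNK9 alone passed in any comparison. The others ranged from -0.19 (CACNG8) to 0.32 (KCNC4) on the log2 scale in the dose trend. All matches of KCNC4 lay in its longest annotated 3′ UTR but not in that of the canonical transcript.

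**Figure D4:**
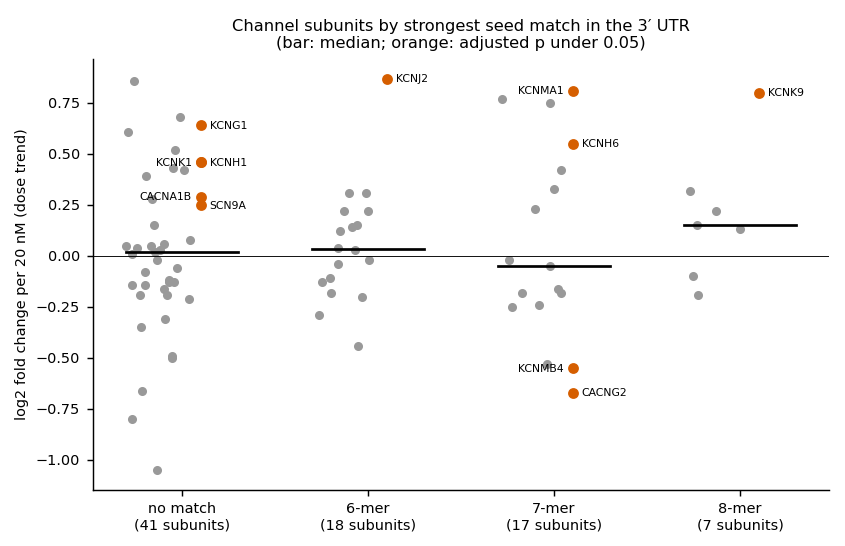
Dose trend, as log2 fold change per 20 nM, of 83 channel subunits by the strongest seed match in its longest 3′ UTR (points; orange and named, adjusted p under 0.05; bar, median). Both members that fell, KCNMB4 and CACNG2, have a 7-mer, and members that rose are found in every class.

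Genes outside the rule that act with these channels were read from the same fits. Of 13 other channels related to the voltage-gated family, 10 were measured. At 20 nM, 1 rose, TPCN1, a calcium and sodium channel of endosomes and lysosomes (0.27 on the log2 scale, adjusted p = 0.0342), and 1 fell, HCN3, a pacemaker channel (-0.45, adjusted p = 0.00473), beside 13.9% of all genes called in either direction. HCN3 was at 44.4, 37.8 and 43.1 CPM in Ctrl and at 31.2, 30.2 and 39.8 CPM at 20 nM, so that replicate 3 lay within the Ctrl libraries.

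Of 38 binding partners and scaffolds of channels, 33 were measured. At 10 nM 1 rose, the axonal adhesion protein CNTN1 (0.30 on the log2 scale, adjusted p = 0.0117). At 20 nM 4 rose and 2 fell, and in the dose trend 6 rose and 2 fell. Over all genes 13.9% passed at 20 nM and 17.5% in the dose trend. CNTN1 was at 54.4, 54.3 and 56.8 CPM in Ctrl, at 65.5, 68.8 and 70.0 CPM at 10 nM and at 85.8, 81.5 and 83.7 CPM at 20 nM, with no overlap between groups (0.59 on the log2 scale at 20 nM, adjusted p = 2.41e-05). Those that also rose at 20 nM were CNTNAP1, which flanks the node of Ranvier (0.21 on the log2 scale), the LGI1 receptor ADAM22 (0.25) and the small GTPase GEM, an inhibitor of calcium channels (0.57). ADAM22 was at 275, 281 and 264 CPM in Ctrl and at 325, 316 and 266 CPM at 20 nM, so that replicate 3 lay within the Ctrl libraries. Those that fell were ANK3, the ankyrin that clusters sodium and KCNQ channels at the axon initial segment, and CNTNAP2, which clusters potassium channels beside the node. ANK3 was at 8.8, 11.4 and 10.3 CPM in Ctrl and at 6.11, 5.93 and 6.48 CPM at 20 nM (-0.75 on the log2 scale, adjusted p = 0.00429). CNTNAP2 was at 17.2, 16.5 and 16 CPM in Ctrl and at 12.6, 13.3 and 13.1 CPM at 20 nM (-0.36 on the log2 scale, adjusted p = 0.0297).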

How the data were processed

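SH-Sy5y cells in 3 groups of 3 libraries (Ctrl, 10 nM, 20 nM, from the sample titles) were compared. The authors quantified polyadenylated RNA with Salmon on GRCh38.p13 (per the submitters' notes, which also name edgeR), and deposited estimated counts for each gene, which need not be whole (88.8% of values). The authors' tables of fold changes and p-values and a log2 table corrected for surrogate variables were deposited too and were not used. Whether strand was used in counting is not stated.

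Estimated counts were rounded, scaled by TMM and fitted in edgeR 4.0.16 (R 4.3.3) with surrogate variables from sva 3.50.0 (1 in the fit by group, 2 in the dose trend). Quasi-likelihood tests over all 9 libraries were adjusted by Benjamini-Hochberg over 14943 genes, with a threshold of 0.05. CPM are not corrected for surrogate variables, so ratios of mean CPM can differ from fitted fold changes. No further gene was removed. The fits were also run on simulated counts, which held no outlying library and no pairing, so that run does not bear on these features. Totals of 17.4 to 28.2 M make members under 1 CPM imprecise.

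Gene models and 3′ UTRs of at least 50 bases came from GENCODE 44, matched to 14105 genes by identifier and 754 by symbol, 84 unmatched. Members described singly were those past the threshold in any of the 4 comparisons, the member with the highest control CPM per kb in each role group, and SCN9A, SCN2A, SCN3A, CACNA1B, CACNA1H, KCNH2 and KCNQ3. A few members are not reported singly here or drawn in the figures. KCNMB3, KCNK15, KCNK5, CACNA2D1, CACNG7 and CACNG8 and the members with an 8-mer were named after their values were seen. The members and lists were chosen with earlier results of these data known. Deviations from the group means correlated between same-numbered libraries at 0.142 to 0.185 for Ctrl and 10 nM, at 0.107 to 0.116 for Ctrl and 20 nM and at 0.0288 to 0.176 for 10 nM and 20 nM. The rule set was that the numbers pair libraries if every pair exceeds 0.1, and the lowest pair, at 0.0288, did not meet it. It was then applied by comparison. All pairs with Ctrl exceeded 0.1, so the replicate number was taken to pair libraries in those comparisons. The main fits hold surrogate variables and not this pairing, and block values are given where they change a call. Alternatives were no surrogate variable, another number of them, the replicate block, RLE or library-total scaling, a mean of at least 1 CPM, DESeq2 1.42.0 and leaving out each library.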

Additional observations from a re-analysis of the deposited data

How the results depend on the processing

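KCNG1, KCNH1 and KCNK1 passed at 20 nM and in the dose trend in all 16 alternatives, and CACNA1B, KCNK9 and KCNMB4 did so in the dose trend. At 10 nM the count of members past the threshold was 0, and 1 with the DESeq2 Wald test, and leaving out single libraries gave 0 to 1. Over all genes it was 97, and 218 with DESeq2, and 34 to 160 without single libraries. At 20 nM 11 members passed, against 6 with no surrogate variable and 7 with DESeq2 (which gave no adjusted p for KCNJ2 and KCNMA1). Leaving out single libraries gave 6 to 12. With the replicate block 11 passed, of which 7 were shared. Over all genes 2074 passed at 20 nM, against 954 with no surrogate variable, 1826 with DESeq2 and 2039 with the block. Leaving out single libraries gave 1074 to 2656 genes. Between 20 nM and 10 nM 1 member passed, against 0 with no surrogate variable, 0 with the replicate block and 2 with the other number of surrogate variables. Over all genes these counts were 417, 67, 124 and 498. Leaving out single libraries gave 0 to 2 members. In this comparison one pair of same-numbered libraries correlated at 0.0288, so the numbers were not taken to pair them. In the dose trend the count of members was 12, 13 with the replicate block (9 shared), and leaving out single libraries gave 10 to 21. Over all genes it was 2620, 2444 with the block and 1668 to 3970 without single libraries. The block changed no other call than those given. Of the 10 highest members per kb, 7 were also among the 10 highest by CPM without length. The share of members with a seed match was 29.9%, 9.2% for 8-mers alone and 51.7% with 6-mers. Over the members described singly, 906 values kept direction and side of the threshold, 61 lost it, 9 passed it and 16 changed sign, the last in members that did not pass, at 20 nM. With no surrogate variable these were KCNE4 (-0.21 on the log2 scale), CACNA2D2 (0.05) and KCNRG (-0.07), and with the replicate block the same members (-0.22, 0.05 and -0.07). With the other number of surrogate variables it was SCN3B (0.03). Leaving out single libraries gave ranges that crossed 0, from -1.10 to 0.47 for KCNE4, -0.41 to 0.05 for KCNIP2, -0.00 to 0.25 for CACNA1C, -0.22 to 0.15 for CACNA1G, -0.09 to 0.10 for CACNA2D2 and -0.19 to 0.06 for SCN3B. The cause was not tested. For members under 1 CPM depth limits what can be seen, and KCNE4 gave no value with a mean of at least 1 CPM.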
